A study of Mus musculus with 20 samples.

Results

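The 9 genes of B cells and plasma cells described here were followed across all 20 arrays of a study of mouse thymus grafts and leukaemias of the T cell lineage (T cell acute lymphoblastic leukaemia, T-ALL): Cd79a, Cd79b, Ms4a1, Blk, Spib, Pax5, Mzb1, Xbp1 and Vpreb3. They were found by symbol in the annotation of the Illumina array, and each was represented by the probe with the highest mean over the 20 arrays. A probe was found for 8 of the 9, among 20255 genes with a probe in all; Cd79a was not analysed here. All 8 were among the 12667 genes tested, which were those above background on at least 2 arrays.

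B cells recognise antigen through a surface immunoglobulin that signals through the paired proteins CD79A and CD79B. Pax5 and Spib are transcription factors that set and maintain B cell identity, Ms4a1 encodes the surface protein CD20, Blk a tyrosine kinase that acts below the receptor, and Vpreb3 a protein of B cell precursors. When B cells become plasma cells, Xbp1 expands the secretory apparatus, and Mzb1 is a chaperone of the endoplasmic reticulum that helps immunoglobulin to assemble. Spleen is rich in mature B cells, whereas thymus consists mostly of developing T cells and holds few B cells.

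The arrays carried 6 labels: 3 arrays came from T-ALL marked Rag- (numbered 8, 9 and 10; the labels do not explain the mark) and 7 from other T-ALL (1 to 7), all in F1(WB x B6/Ly5.1) mice and marked in their titles as re-analyses. The others came from total splenocytes of WB hosts (host spleen 4 and 5), from F1(WB x B6/Ly5.1) thymus grafts taken at 10 weeks (1 to 4), described as autonomous thymus, and from C57BL/6 mice as total splenocytes (WT spleen 1 and 3) and total thymocytes (WT thymus 1 and 3). Strain differed along with label in host spleen over WT spleen or grafts and in grafts over WT thymus, but not in WT spleen over WT thymus. Cells were used as suspensions or after sorting, without a statement of which arrays were sorted. The labels do not tell if same-label arrays came from different mice. The p-values therefore reflect array-to-array spread alone, part of which may be technical. That spread entered the tests as a single variance per gene shared by the 6 labels, although the labels differed in spread. For Mzb1 the SD was 0.08 in host spleen and 3.39 in WT spleen. An SE or p-value can thus understate the spread of a label as uneven as WT spleen. Levels are the log2 intensities deposited by the authors, quantile normalized, with a median of 6.95 on every array; a level above 7.12 was taken as above background.

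Several arrays differed in content from what their labels name. The T cell receptor (TCR) complex list, of CD3 chains and their signalling partners, averaged 13.44 to 13.49 on the host spleen arrays, 12.75 to 13.81 on the grafts, 11.22 and 12.81 on WT spleen 1 and 3, and 9.85 and 12.88 on WT thymus 1 and 3. The 9 measured genes of CD4/CD8 double-positive thymocytes averaged 11.28 to 11.47 on the host spleen arrays and 8.59 and 10.34 on WT spleen 1 and 3. Granule genes of neutrophils averaged 7.09 to 7.28 on host spleen, 14.03 and 11.83 on WT spleen 1 and 3, and 13.90 and 9.90 on WT thymus 1 and 3. Genes of pancreatic acinar cells, which are also rich in Xbp1, averaged 6.84 to 6.89 on host spleen and 10.41 to 10.47 on WT spleen. Groups were kept as labelled, and several results are also given without WT spleen 1, WT spleen 3 or graft 3. In these mixed samples, fewer cells of a type and less RNA per cell cannot be told apart.

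Cd79b, the signalling partner of surface immunoglobulin, was above background on 20 of 20 arrays and ranged over 3.84 log2 units. Its levels were 7.88, 7.35 and 8.24 on the T-ALL Rag- arrays, and had a lowest, median and highest value of 7.19, 7.67 and 8.63 over the 7 T-ALL arrays. They were 9.71 and 9.73 on host spleen, 9.49, 9.63, 8.16 and 9.53 on grafts 1 to 4, 11.03 and 7.25 on WT spleen 1 and 3, and 8.32 and 8.05 on WT thymus 1 and 3. WT spleen 1 was the highest of all arrays, while WT spleen 3, with the same label, was among the lowest. The dimmer of the gene's 2 probes gave 9.23 on WT spleen 1 and 6.83 on WT spleen 3. By group mean the order was host spleen 9.72 ± 0.01 (SD, n = 2), grafts 9.20 ± 0.70 (n = 4), WT spleen 9.14 ± 2.67 (n = 2), WT thymus 8.18 ± 0.19 (n = 2), T-ALL Rag- 7.82 ± 0.45 (n = 3) and T-ALL 7.78 ± 0.52 (n = 7). Each pair of neighbours in this order differed by less than the larger of their SDs.

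The surface protein gene Ms4a1 and the transcription factor genes Pax5 and Spib had levels close to background on every array. Ms4a1 and Pax5 had 1 probe each. Whether a probe at background responds to its RNA was not tested, for these or for other genes. Ms4a1 lay between 6.98 and 7.37, Pax5 between 6.82 and 7.36, and Spib between 6.89 and 7.64. Their highest values were on T-ALL 5, T-ALL 4 and T-ALL 1. On WT spleen 1 and 3, Ms4a1 was 7.25 and 7.09 and Pax5 was 6.97 and 6.98. By the threshold, Ms4a1 was above background on 10 arrays, Spib on 9 and Pax5 on 3. Spib was 7.17 and 7.19 on WT spleen 1 and 3, against 6.89 and 6.90 on WT thymus 1 and 3. The dimmer Spib probe did not separate these labels, with 7.12 and 7.04 on WT spleen 1 and 3 and 7.19 and 6.94 on WT thymus 1 and 3. That probe gave 6.92 on T-ALL 1.

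Blk, the kinase, was above background on 16 arrays and was brighter in many leukaemia arrays than in spleen. Its levels were 8.22, 10.02 and 6.91 on T-ALL Rag- 8, 9 and 10, and 7.13, 9.71 and 10.66 as the lowest, median and highest of T-ALL. They were 7.89 and 7.61 on host spleen, 7.14, 7.55, 9.40 and 7.04 on grafts 1 to 4, 7.55 and 8.28 on WT spleen 1 and 3, and 6.67 and 6.72 on WT thymus. Within T-ALL the arrays fell apart, with T-ALL 1 and 3 at 7.13 and 7.19 and the other 5 between 9.14 and 10.66. The second brightest Blk probe gave 6.87 and 7.24 on T-ALL 1 and 3 and 8.52 to 10.05 on the other 5.

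Vpreb3, which acts in B cell precursors, was above background on 2 of 20 arrays, at 8.10 on WT spleen 1 and 7.28 on T-ALL 7. The other WT spleen array gave 6.66, the lowest value of the gene. It entered the tests through those 2 arrays alone. Its upstream sequence is shown because it is the member promoter in which the octamer motif was found, and that of Xbp1 for contrast, as the member that was bright on every array; each holds the 250 bases before the start used in the RefSeq promoter table (GRCm38.p6), 5′ to 3′ on the plus strand, with motif matches in capitals. For Vpreb3 that start lies inside the gene's RefSeq span, not at its first base.
Vpreb3, chr10:75948050-75948299: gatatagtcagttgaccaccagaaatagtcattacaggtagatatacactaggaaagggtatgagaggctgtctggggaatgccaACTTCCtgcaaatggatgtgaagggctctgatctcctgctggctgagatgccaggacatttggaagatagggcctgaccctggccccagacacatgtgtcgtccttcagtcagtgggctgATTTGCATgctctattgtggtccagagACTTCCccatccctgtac
Xbp1, chr11:5520391-5520640: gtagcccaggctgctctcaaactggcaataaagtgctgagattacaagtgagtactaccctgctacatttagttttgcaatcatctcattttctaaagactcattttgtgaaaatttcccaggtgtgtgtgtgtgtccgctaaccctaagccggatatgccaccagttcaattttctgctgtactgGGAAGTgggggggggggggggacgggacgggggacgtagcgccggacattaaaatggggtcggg
A promoter was found in the table for 5 of the 9 genes (Cd79a, Spib, Pax5, Xbp1 and Vpreb3). In windows that begin 250 bases before the start and end 50 bases past it, both strands were searched for the octamer ATTTGCAT of immunoglobulin promoters, the unfolded protein response element TGACGTGG, the palindromic EBF motif and the ETS motif GGAAGT. Vpreb3 had 1 octamer, whose first base was at -45 relative to the start, and 2 ETS matches on the minus strand, written ACTTCC above; Xbp1 and Cd79a had 1 ETS match each. The octamer occurred in 1.74% of 32851 promoters, the response element in 0.676%, the EBF motif in 0.904% and the ETS motif in 23.8%. The matches did not overlap, and they are descriptions of the letters only. The motifs were chosen after the Vpreb3 promoter had been read, so its octamer is no independent finding.

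Mzb1, the immunoglobulin chaperone, had the widest range of the 8 genes, 7.39 log2 units. Its levels were 10.66, 7.27 and 6.91 on T-ALL Rag- 8, 9 and 10, and 6.93, 9.35 and 12.49 as the lowest, median and highest of T-ALL. They were 8.05 and 8.16 on host spleen, 7.43, 8.28, 10.69 and 7.52 on grafts 1 to 4, 14.30 and 9.50 on WT spleen 1 and 3, and 7.04 and 7.11 on WT thymus, where both were below background. WT spleen 1 was the highest, followed by T-ALL 5 at 12.49 and T-ALL 1 at 11.11, so high Mzb1 was not restricted to arrays labelled spleen.

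Xbp1, the factor that expands the secretory apparatus, was bright on all 20 arrays. Its levels were 11.56, 10.39 and 11.22 on T-ALL Rag-, and 10.74, 11.22 and 12.12 as the lowest, median and highest of T-ALL. They were 12.25 and 12.27 on host spleen, 12.32, 11.94, 11.76 and 12.37 on grafts, 13.38 and 10.85 on WT spleen 1 and 3, and 12.68 and 10.64 on WT thymus 1 and 3. The gap within each WT label was wider than the range over the T-ALL arrays. WT spleen 1 and WT thymus 1, the 2 highest, were also the 2 arrays with the highest granulocyte means; whether other cell types contributed Xbp1 was not tested.

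**Figure D1:**
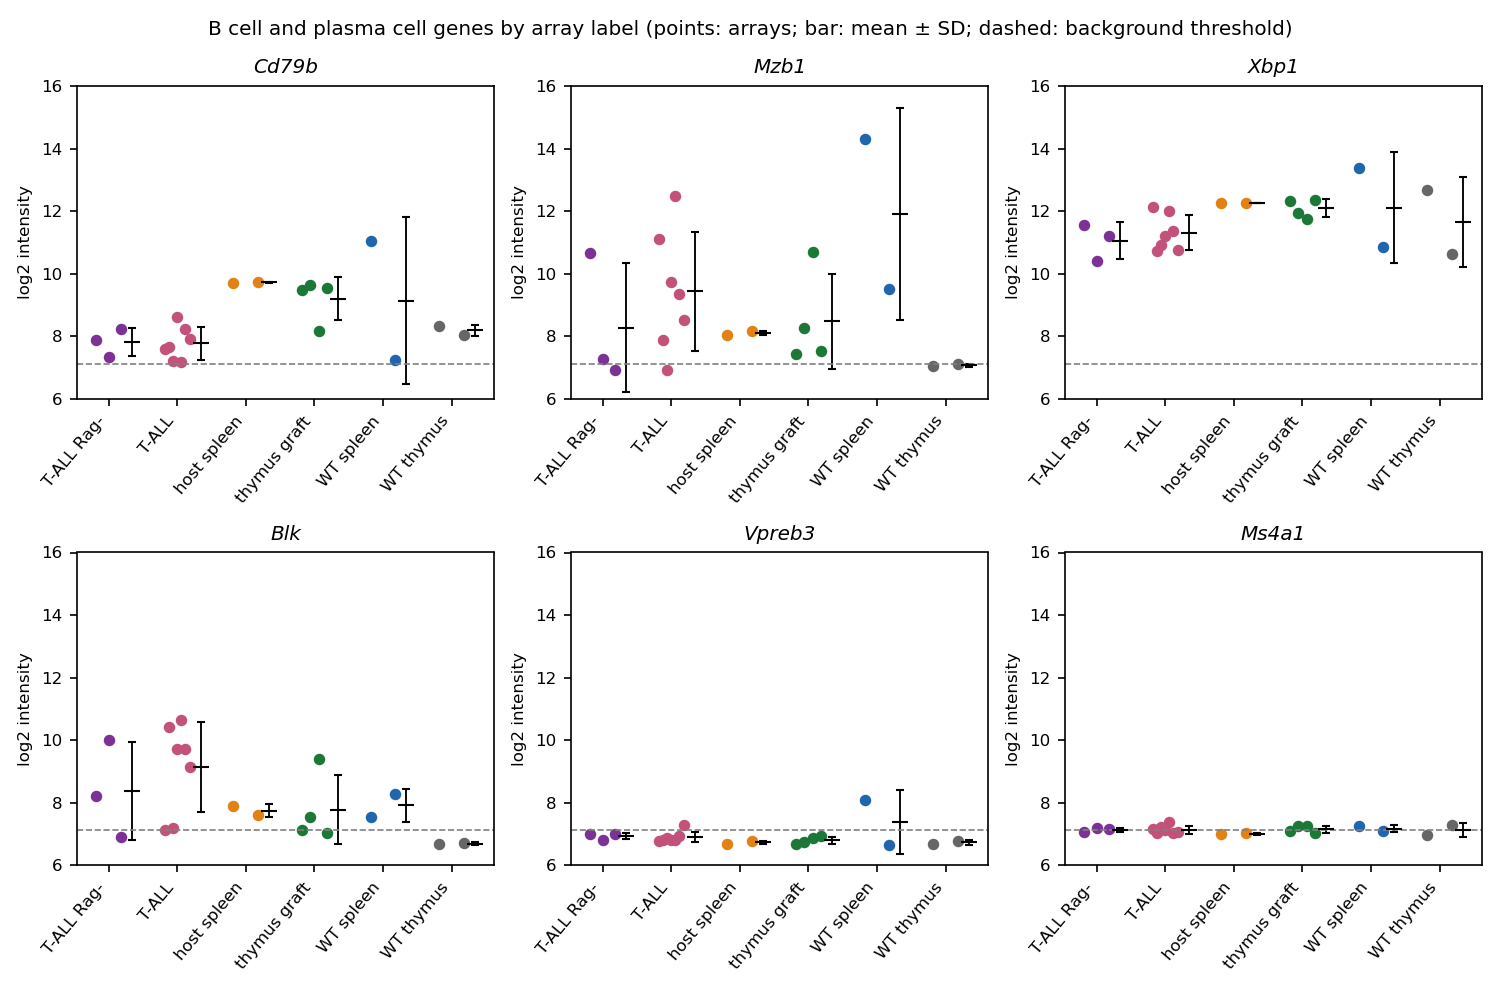
Log2 intensity of 6 of the measured genes by array label, 1 point per array, with group mean ± SD beside the points and the background threshold (7.12) dashed. WT spleen 1 is the highest point for Cd79b (11.03), Mzb1 (14.30), Xbp1 (13.38) and Vpreb3 (8.10), and the other WT spleen array lies far below it in each.

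**Figure D2:**
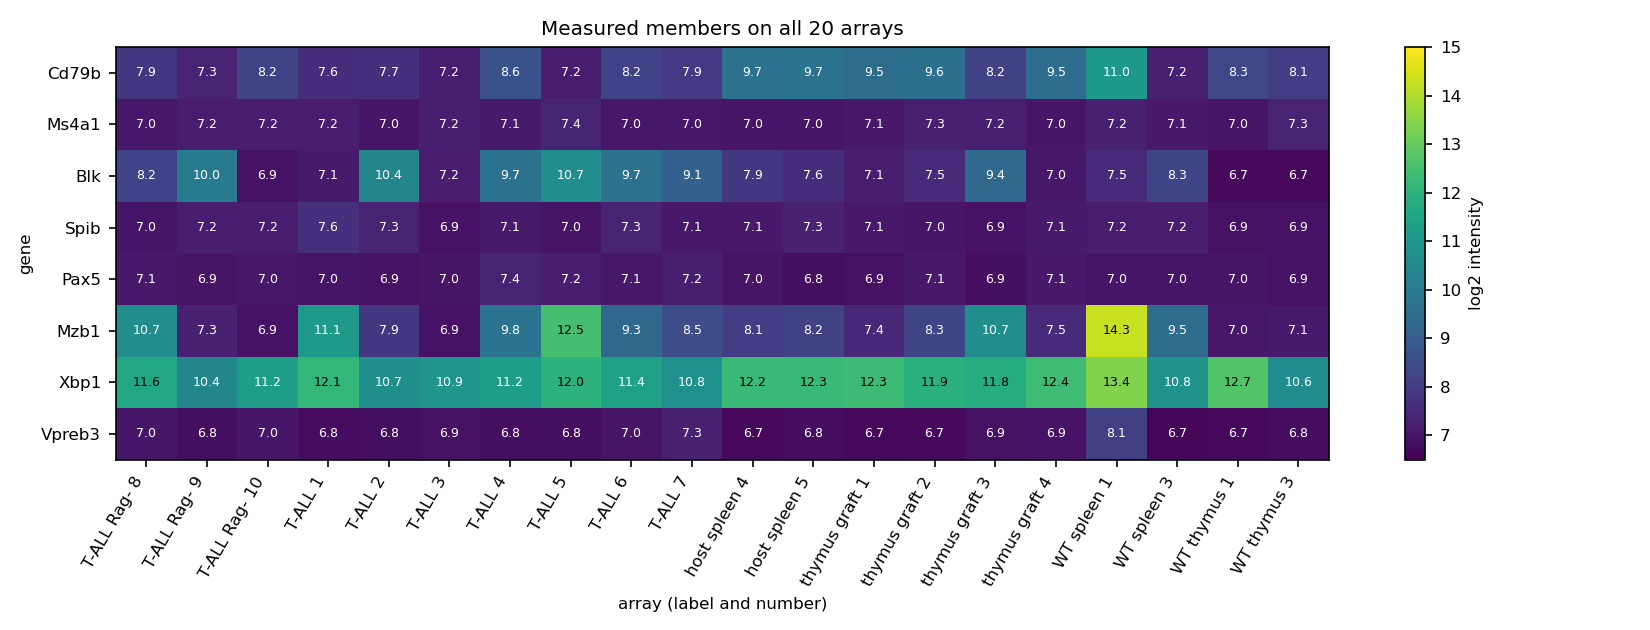
Log2 intensity of the 8 measured genes (rows) on the 20 arrays (columns), with each value printed to 1 decimal. Ms4a1, Pax5 and Spib stay near background throughout, and Blk is brightest on T-ALL 5, at 10.66.

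Immunoglobulin and plasma cell genes were set beside these levels to ask what B lineage RNA the spleen labels held. Igkc, the kappa light chain constant region, was 13.55 and 12.91 on host spleen, 8.76, 13.15, 15.19 and 7.84 on grafts 1 to 4, 15.11 and 12.37 on WT spleen 1 and 3, and 6.96 and 7.01 on WT thymus, both below background. It was also 14.36 on T-ALL Rag- 8, 14.67 on T-ALL 2 and 14.98 on T-ALL 6. All 4 spleen arrays therefore held kappa light chain RNA above the WT thymus arrays, but grafts and leukaemias reached the same levels. Ighm, the heavy chain of IgM, was above background on 20 arrays, 7.57 on WT thymus 1 and between 11.27 and 14.86 on the others. WT thymus 3, at 12.49, lay below the 4 spleen arrays (12.67 to 14.54), the nearest being WT spleen 3.

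Several genes of antibody secretion were high on one spleen array, but not all of the list. Ighg1, the heavy chain of IgG1, was 13.70 on WT spleen 1 and at most 8.19 on the others. WT spleen 1 was also highest for the B cell coactivator Pou2af1 (11.32), the endoplasmic reticulum genes Txndc5 (12.16), Fkbp11 (11.77) and Derl3 (8.86), the joining chain gene Jchain (7.54) and the BAFF family receptor gene Tnfrsf17 (7.78). Prdm1, a master regulator of plasma cells, was above background on no array. Sdc1, which encodes the surface proteoglycan CD138, was 7.75 and 7.81 on WT spleen 1 and 3, below WT thymus 3 (8.30), and reached 8.64 on T-ALL Rag- 10. Of the 6 plasma cell markers measured, 5 were above background on WT spleen 1, 2 on WT spleen 3, 1 on each host spleen array and 0 and 1 on WT thymus 1 and 3. Graft 3 had 4 and the other grafts 1 or 2, T-ALL Rag- arrays had 1 to 3, and T-ALL arrays 1 or 2. Apart from Pou2af1 and Txndc5, these genes were picked after their values had been seen.

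Of the 12 B cell markers listed, 9 were measured, and they did not separate the spleen labels cleanly. Of these, 7 were above background on WT spleen 1, 4 on WT spleen 3 and 4 on each host spleen array. Grafts had 3 to 6, and WT thymus 1 and 3 had 3 and 4. T-ALL Rag- 8, 9 and 10 had 4, 7 and 5, T-ALL 4 had 8, and the other T-ALL arrays had 4 to 6. The count on T-ALL 4 included values close to background: Ms4a1 and Cd22 at 7.13, Fcer2a at 7.25 and Pax5 at 7.36. That on WT spleen 1 included Ms4a1 at 7.25 and Fcer2a at 7.17. That on T-ALL Rag- 9 included Ms4a1 at 7.18, Cd22 at 7.23 and Fcer2a at 7.27. The marker mean of T-ALL 4 was 8.68, below WT spleen 1 and above WT spleen 3. Cr2, the complement receptor of mature B cells, was above background on no array, and Fcer2a, which encodes CD23, on 4, at most at 7.27. Cd22, an inhibitory receptor, was highest on WT thymus 1, at 7.94. The 9 markers averaged 8.80 and 8.65 on host spleen, 9.34 and 8.38 on WT spleen 1 and 3, and 7.26 and 7.74 on WT thymus 1 and 3. The mean was 9.19 on graft 3, 9.10 on T-ALL 2 and 8.99 on T-ALL 6, each above 3 of the 4 arrays labelled spleen. On graft 3 the brightest markers were Igkc (15.19) and Ighm (14.86), while Ms4a1, Cd22, Cr2, Fcer2a and Pax5 lay between 6.78 and 7.25.

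**Figure D3:**
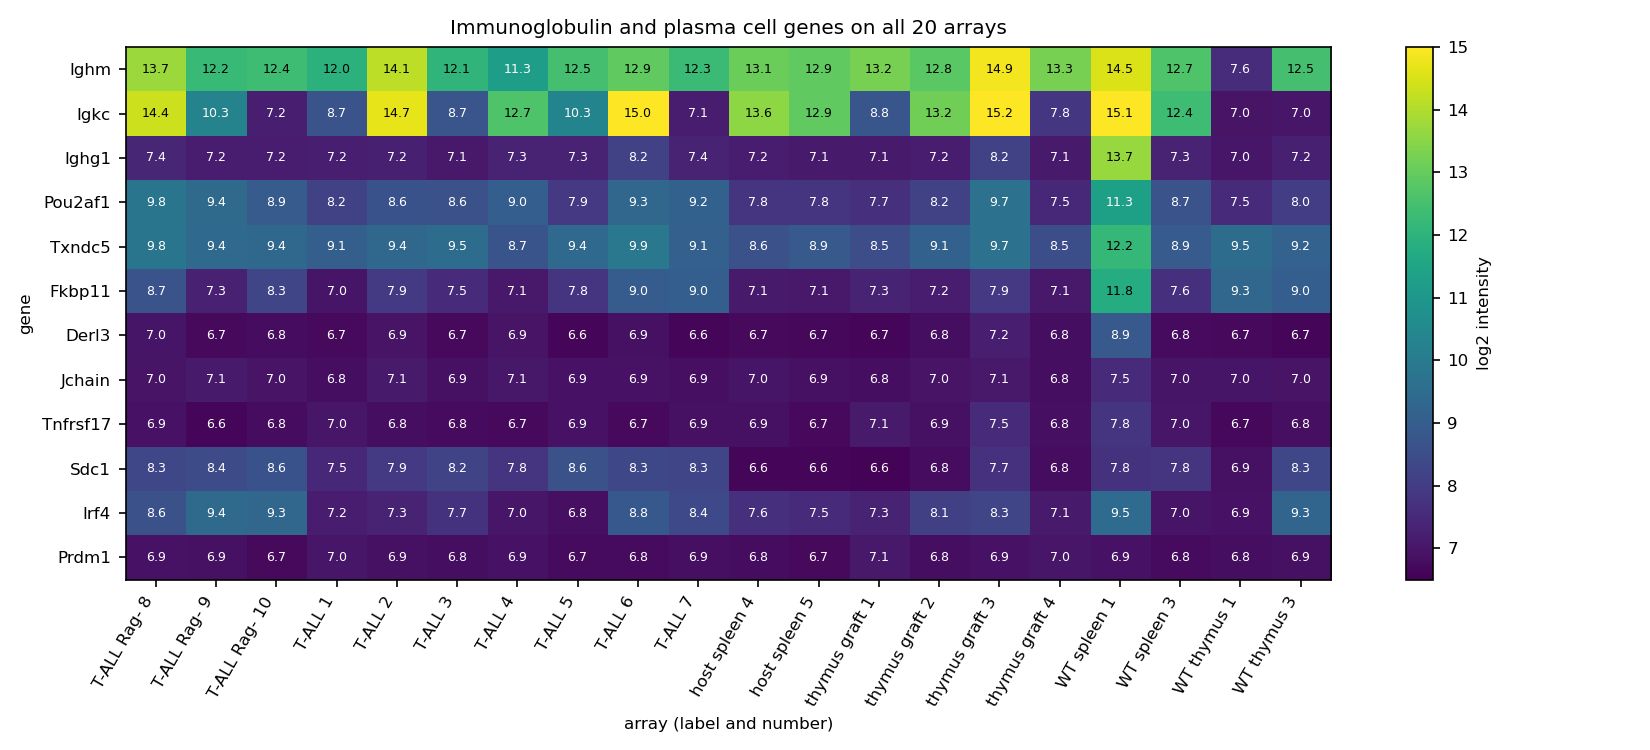
Log2 intensity of immunoglobulin and plasma cell genes (rows) on the 20 arrays (columns). Igkc exceeds 14 on arrays of 4 labels, whereas Ighg1 is high only on WT spleen 1, at 13.70.

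**Figure D4:**
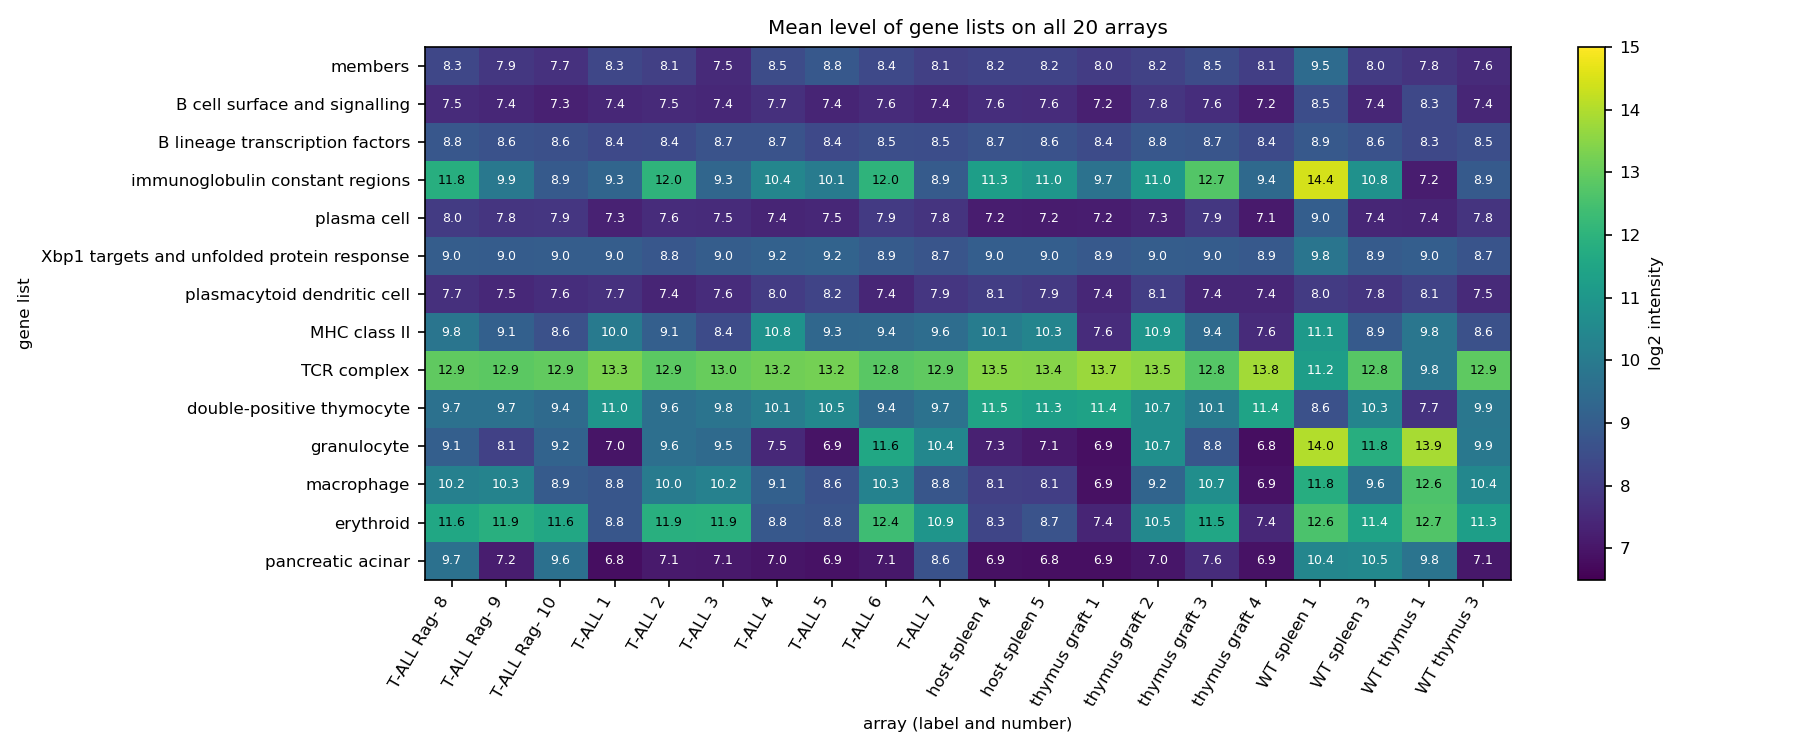
Mean log2 intensity of gene lists (rows) on the 20 arrays (columns), the 8 measured genes in the first row. WT spleen 1 has the highest mean of the 8 genes (9.47) and of granulocyte genes (14.03), while the double-positive thymocyte means are 11.28 to 11.47 on host spleen and 10.07 to 11.43 on the grafts.

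WT spleen against WT thymus, on the same chip, asked whether the spleen label carries more B cell RNA. Mzb1 averaged 11.90 ± 3.39 in WT spleen and 7.08 ± 0.05 in WT thymus (SD, n = 2 each), at least 27.5-fold higher, with a log2 difference of 4.83 (SE 1.70, limma adjusted p = 0.809). Without WT spleen 1 the Mzb1 difference was 2.42 (at least 5.21-fold), and without WT spleen 3 it was 7.22, each with a single WT spleen array left. All 8 genes were higher in WT spleen, with a median log2 difference of 0.55 against -0.01 over all genes tested; without WT spleen 1, 4 of the 8 were higher and their median was 0. Limma called 0 of the 8, with 0% of the 12667 genes called in this comparison; 2 of the 8 and 660 of all genes had an unadjusted p under 0.05. Blk, Spib, Pax5 and Mzb1 did not overlap between the labels (4 of 8), against 21.6% of all genes. However, Spib and Pax5 lie near background in both labels, and the dimmer Spib probe did overlap. The result turned on single arrays. Without WT spleen 3 the log2 difference was 2.85 for Cd79b and 1.37 for Vpreb3, and without WT spleen 1 it was -0.94 and -0.07. Vpreb3 had entered the tests partly through its level on WT spleen 1. That array alone stood for the label without WT spleen 3, so the 1.37 gives no independent support.

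Genes of the same pathways stood likewise. In WT spleen over WT thymus, 0 of 19 B cell surface and signalling genes, 0 of 3 immunoglobulin constant regions, 0 of 8 plasma cell genes and 0 of 14 Xbp1 target and unfolded protein response genes passed the test. The 3 constant regions had a median log2 difference of 3.58 and the plasma cell genes of 0.59. Without WT spleen 1 these medians were 2.64 and 0.04. Both constant region medians are the differences of Ighm, which rest on its low level on WT thymus 1. Ighm was 7.57 and 12.49 on WT thymus 1 and 3, and 14.54 and 12.67 on WT spleen 1 and 3. Medians without a WT thymus array were not computed.

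Host spleen against WT spleen asked whether the spleen labels carried like B cell RNA. Mzb1 averaged 8.10 ± 0.08 in host spleen and 11.90 ± 3.39 in WT spleen (log2 difference -3.80, SE 1.70, adjusted p = 0.191). Limma called 0 of the 8, with 2.98% of all genes called; 2 of the 8 had an unadjusted p under 0.05, and so had 2908 of all genes. Ms4a1, Pax5 and Mzb1 did not overlap (3 of 8), against 54.8% of all genes, a share above theirs. Pax5 was above background on no array of either label, and Ms4a1 only on WT spleen 1, at 7.25. Cd79b averaged 9.72 ± 0.01 in host spleen and 9.14 ± 2.67 in WT spleen (difference 0.58, adjusted p = 0.718). Without WT spleen 3, a single WT spleen array was left, and the differences were -6.20 for Mzb1, -1.31 for Cd79b and -1.37 for Vpreb3. The limit given above for Vpreb3 holds here too. Without WT spleen 1, the Mzb1 difference was -1.40.

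Among B lineage transcription factors, Bach2, a repressor that restrains plasma cell differentiation and is also expressed in T cells, rose in host spleen over WT spleen by 2.36 log2 (SE 0.46, adjusted p = 0.0190), the single gene of 10 to pass. In host spleen over WT spleen, 0 of 19 B cell surface and signalling genes, 0 of 3 constant regions, 0 of 8 plasma cell genes and 0 of 14 Xbp1 target genes passed the test; the 8 plasma cell genes were all lower in host spleen, with a median log2 difference of -1.12, and 7 of them had an unadjusted p under 0.05, with 2908 of the 12667 genes. Without WT spleen 1, 7 were lower, the median was -0.21 and 1 had an unadjusted p under 0.05. In the comparisons that involve grafts or T-ALL, no gene of these lists passed. Siglech, a marker of plasmacytoid dendritic cells, rose by 1.06 (SE 0.20, adjusted p = 0.0146), and also over grafts by 0.96 (SE 0.17, adjusted p = 0.0208). Its probe exceeded the threshold on 1 of 2 WT spleen arrays and 2 of 4 grafts. Siglech did not stand for its list of plasmacytoid dendritic cell genes. Of the 7 tested in host spleen over WT spleen, 3 were higher and 4 lower, with a median log2 difference of -0.38. Over grafts 6 were higher and 1 lower, with a median of 0.385. Genes of other cell types moved in host spleen over WT spleen. Themis of double-positive thymocytes rose by 2.76 (adjusted p = 0.0295) and Ccl25 of thymic epithelium by 2.82 (adjusted p = 0.0334). The neutrophil granule gene Ltf was at least 107-fold lower in host spleen (adjusted p = 0.0475), and the acinar enzyme gene Cela2a at least 38.2-fold lower (adjusted p = 0.0359), both not above background there. None of these 6 genes passed in host spleen over WT spleen without WT spleen 1, nor without host spleen 4 or 5; Bach2 then differed by 2.54 without WT spleen 1 (adjusted p = 0.0627) and by 2.35 and 2.36 without a host array (adjusted p = 0.134 and 0.150), and Themis by 1.74 without WT spleen 1 (adjusted p = 0.231). Siglech over grafts did not pass without host spleen 4 or 5 (adjusted p = 0.447 and 0.136), graft 3 (0.0561) or graft 4 (0.0582). The part of other cell types in the values of the B cell genes was not tested.

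Host spleen against thymus graft set the spleen label beside T cell tissue. Cd79b averaged 9.72 ± 0.01 in host spleen and 9.20 ± 0.70 in grafts (SD, n = 2 and 4; log2 difference 0.52, 95% interval -0.95 to 1.99, adjusted p = 0.960). Limma called 0 of the 8, with 0.3% of all genes called, and 0 of the 8 and 994 of all genes had an unadjusted p under 0.05. Cd79b alone did not overlap (1 of 8), against 23.5% of all genes. Xbp1 differed by 0.16 (95% interval -1.12 to 1.44). Igkc was 13.55 and 12.91 on host spleen, within the 7.84 to 15.19 of the grafts. Chip and strain cannot be told apart from label here.

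Thymus graft against WT thymus showed no call either. Cd79b averaged 9.20 ± 0.70 in grafts and 8.18 ± 0.19 in WT thymus (log2 difference 1.02, SE 0.70, adjusted p = 0.431), and Mzb1 was at least 2.57-fold higher in grafts, with an adjusted p of 0.633; without graft 3 it was at least 1.54-fold higher. Limma called 0 of 8, with 0.0789% of all genes called, and 0 of the 8 and 2571 of all genes had an unadjusted p under 0.05. Blk, Spib and Mzb1 did not overlap (3 of 8), against 18.7% of all genes. However, by its brighter probe Spib was above background on no array of either label, and its dimmer probe did overlap. Chip and strain cannot be told apart from label here either.

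T-ALL against thymus graft gave the lowest member p among comparisons outside spleen. Cd79b averaged 7.78 ± 0.52 in T-ALL and 9.20 ± 0.70 in grafts (SD, n = 7 and 4), a log2 difference of -1.42 (SE 0.50, adjusted p = 0.156); T-ALL 4 and T-ALL 6, at 8.63 and 8.22, overlapped with graft 3 at 8.16. Limma called 0 of 8, with 0.324% of all genes called, and 1 had an unadjusted p under 0.05, with 2152 of all genes. None of the 8 was free of overlap, against 2.34% of all genes. Blk averaged 9.14 ± 1.44 in T-ALL and 7.78 ± 1.10 in grafts (difference 1.35, SE 0.70, adjusted p = 0.345). Xbp1 averaged 11.31 ± 0.56 in T-ALL and 12.10 ± 0.30 in grafts (difference -0.79, SE 0.44, adjusted p = 0.383). Without graft 3, Cd79b was called (-1.77, adjusted p = 0.0490). Within chips that held both labels, the Cd79b difference was -2.06 on chip 1 and -0.83 on chip 2, and neither was called (adjusted p = 0.100 and 0.822).

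T-ALL Rag- was set against the same grafts; no chip held both labels, so chip cannot be told apart from label. Cd79b averaged 7.82 ± 0.45 in T-ALL Rag- and 9.20 ± 0.70 in grafts (n = 3 and 4; log2 difference -1.38, SE 0.61, adjusted p = 0.277). Xbp1 averaged 11.06 ± 0.60 in T-ALL Rag- and 12.10 ± 0.30 in grafts (difference -1.04, SE 0.54, adjusted p = 0.343), and was the 1 of 8 without overlap, against 12.9% of all genes. Limma called 0 of 8, with 0.0158% of all genes called and 1 of the 8 at an unadjusted p under 0.05, with 2073 of all genes. The T-ALL and T-ALL Rag- comparisons share the graft arrays.

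T-ALL Rag- against other T-ALL showed 0 of 8 called and 0 at an unadjusted p under 0.05, with 0% of all genes called; 653 of all genes had an unadjusted p under 0.05. None of the 8 was free of overlap, against 2.05% of all genes. Blk averaged 8.38 ± 1.56 in T-ALL Rag- and 9.14 ± 1.44 in T-ALL (difference -0.75, 95% interval -2.39 to 0.88), and Mzb1 averaged 8.28 ± 2.07 in T-ALL Rag- and 9.43 ± 1.91 in T-ALL (difference -1.15, 95% interval -3.62 to 1.31). With each array left out, these differences ranged over -1.57 to -0.017 for Blk (lowest without T-ALL Rag- 9, highest without T-ALL Rag- 10) and -2.34 to -0.47 for Mzb1 (without T-ALL Rag- 8 and without T-ALL Rag- 10). Cd79b averaged 7.82 ± 0.45 in T-ALL Rag- and 7.78 ± 0.52 in T-ALL (95% interval of the difference -1.13 to 1.22).

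**Figure D5:**
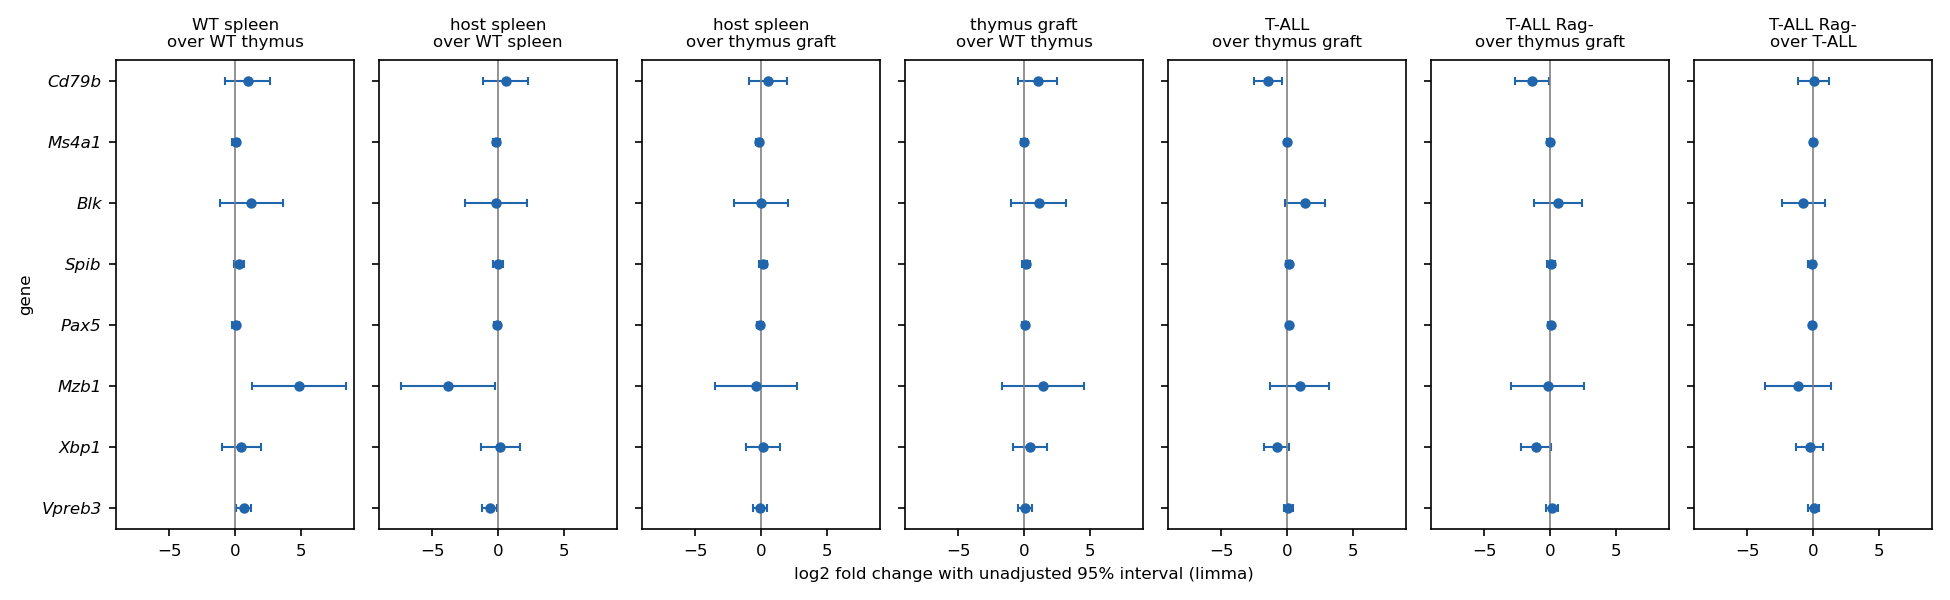
Log2 fold change (horizontal, points) with its unadjusted 95% interval (lines) for the 8 genes (rows) in 7 comparisons (panels), from limma. Mzb1 and Blk have wide intervals, and no gene passed the adjusted threshold in any panel.

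The genes did not vary as one group over arrays. As a description over 20 arrays that share chips and labels, Cd79b and Xbp1 had a Pearson r of 0.73, and 0.62 without WT spleen 1, while Mzb1 and Vpreb3 had 0.58, and 0.082 without it. Cd79b and Blk had a Pearson r of -0.39. Among the other genes tested, those most like the mean of the 8 were Cypt3 (r = 0.831), Fcer1a (0.807), C7 (0.804), Igkv8-16 (0.772) and Gm4981 (0.768). Cypt3 and Gm4981 lay near background, at most at 7.32 and 7.20. Cypt3, Fcer1a, C7 and Igkv8-16 were highest on WT spleen 1, and their r without that array was not computed. Most like Xbp1 were Trp53inp2 (0.899), Creld1 (0.865) and Stx7 (0.845). For Cd79b, Ccpg1 was first (0.875), and for Blk it was Fam167a (0.877), the gene next to it on chromosome 14 in GRCm38.p6; likeness to Cd79b, Mzb1 and Blk was added after values had been seen, in place of Cd79a.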

How the data were processed

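RNA of 20 mouse samples was measured on Illumina arrays; per the labels, it was extracted with RNAzol B and labelled with an Ambion MessageAmp kit. The deposited log2 values of 46089 probes had been quantile normalized by the authors, read from sorted values that differed by at most 0.01 between arrays; software and background step are not given in the sources used here. Another deposited table held 20 columns that match no label and were not used. Background was the mode of all values (6.78) plus 3 SD, 7.12. Symbols were brought up to date from RefSeq for 35667 probes with 1 symbol; 10422 had none. Group means were fitted with limma 3.58.1 (R 4.3.3, intensity trend, Benjamini-Hochberg over 12667 genes, called at adjusted p under 0.05). In the main fit each gene had a single variance shared by all labels. The number of arrays, 2 in several groups, limits precision. "At least" folds set dim arrays to the threshold where they lay under it; values after ± are SD, and SE is that of the contrast.

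On simulated arrays with 100 genes changed by 4 log2 units, the fit recovered 98 in WT spleen over WT thymus, and 79 of 100 changed by 2. The changed genes were drawn at random from those tested, with simulated noise independent between arrays and of the same SD in every label. Recovery where labels differ in spread, as here, was not measured. Recovery was not measured separately for genes as variable as Mzb1, which differed by 4.83 (SE 1.70) and was not called. The genes, lists and tests were chosen with earlier results of these data known, and the naming rule took every member, up to 4 called genes of each list or else its 2 brightest, and the genes of highest correlation. The motifs, the printed promoters, the plasma cell genes of the heat map and a chip block for T-ALL Rag- over T-ALL were chosen after values had been seen. Alternatives are listed in the closing section.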

Additional observations from a re-analysis of the deposited data

Results flagged for a closer look

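Of 16 pairs of a gene and a label with at least 4 arrays, 2 held an array set apart from the others by more than Dixon's 95% critical value, and chance gives about 1 in 20. Cd79b on thymus graft 3 was 8.16, below the other 3 grafts at 9.49 to 9.63. That array also had the highest graft levels of Mzb1 (10.69), Blk (9.40) and Igkc (15.19), and the highest graft mean of erythroid genes (11.54); their part in the Cd79b level was not tested. Vpreb3 on T-ALL 7 was 7.28, just above background, where the other 6 T-ALL arrays were at or below 6.95.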

How the results depend on the processing

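Over the 7 comparisons, the number of the 8 genes called kept its value of 0 under every alternative except when 1 array was left out. It then ranged over 0 to 1 in T-ALL over thymus graft (1 without graft 3). In WT spleen over WT thymus and host spleen over WT spleen it moved without WT spleen 3, where the count over all genes rose too. Those fits held a single WT spleen array, so their calls are not read as results. The alternatives were background-subtracted values, centring on bright genes, no or a stricter intensity filter (under which 6 of the 8 were tested), the mean of probes, the 2 groups alone, chip as a block, single chips and leaving out arrays. Where this left 1 array in a group, it was assumed to vary like the others. Of 810 alternative values for 56 differences, 49 changed sign, 33 when 1 array was left out and 16 under another alternative; 0 of the 49 had an adjusted p under 0.05, and the cause was not tested. List medians without WT spleen 1 or 3 were added after seeing the data.

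In WT spleen over WT thymus, leaving out arrays moved the log2 differences over -0.94 to 2.85 for Cd79b, -0.13 to 0.19 for Ms4a1, -0.81 to 1.72 for Xbp1, -0.07 to 1.37 for Vpreb3 and 2.42 to 7.22 for Mzb1. In host spleen over WT spleen the ranges were -1.31 to 2.47 for Cd79b, -0.53 to 0.20 for Blk, -1.12 to 1.41 for Xbp1, -1.37 to 0.07 for Vpreb3 and -6.20 to -1.40 for Mzb1. In host spleen over graft they were -0.28 to 0.51 for Blk and -0.72 to 0.36 for Mzb1, and in graft over WT thymus -0.14 to 0.18 for Ms4a1, -0.58 to 1.46 for Xbp1 and 0.67 to 1.76 for Mzb1. In T-ALL over graft they were -0.06 to 0.017 for Ms4a1 and 0.44 to 1.69 for Mzb1. In T-ALL Rag- over graft the ranges were -0.073 to 0.0075 for Ms4a1, -0.22 to 1.34 for Blk and -1.39 to 0.54 for Mzb1. In T-ALL Rag- over T-ALL they were -0.16 to 0.28 for Cd79b, -0.04 to 0.025 for Ms4a1 and -0.50 to 0.083 for Xbp1.

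Background subtraction gave Blk 0.28 in host spleen over graft. Centring gave -0.05 for Ms4a1 and -0.025 for Pax5 in graft over WT thymus. In T-ALL over graft, chip 2 alone gave 0.04 for Ms4a1 and -0.04 for Vpreb3, and chip 1 alone gave -0.023 for Pax5. In T-ALL Rag- over T-ALL, chip as a fixed block (added after seeing the data) and chip 3 alone each gave -0.097 for Cd79b, 0.077 for Ms4a1, 0.0033 for Spib, 0.29 for Xbp1 and -0.34 for Vpreb3.

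WT spleen and WT thymus share the numbers 1 and 3, which the labels do not tie to an animal, and the deviations of the arrays numbered 1 correlated at 0.68 with 2 pairs in all. With the number as a replicate block, 0 of 8 genes were called, as without it, 3 of all genes in place of 0, and Mzb1 differed by 4.83 (adjusted p = 0.349). Chip as a random block changed the count over all genes to 604 in T-ALL Rag- over graft, against 2, and to 261 in graft over WT thymus, against 10, while 0 of the 8 were called. The correlation within chip was estimated as -0.12. In both comparisons chip cannot be told apart from label, so the added calls cannot be read as differences between labels.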

Other observations

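Lists of early B cell and antigen presentation genes, both shared with other cell types, were also read by label. The pre-B cell list, which shares Rag1 and Dntt with developing T cells, averaged 8.75 to 8.82 on host spleen and 7.82 to 8.25 on WT spleen. Its means were 8.20 to 8.49 on the grafts. Of this list, Vpreb2 and Igll1 were above background on no array, so the list means do not measure early B cells alone. MHC class II genes, which B cells share with dendritic cells and macrophages, averaged 10.06 to 10.34 on host spleen, 11.11 and 8.92 on WT spleen 1 and 3, and 7.56 to 10.94 on the grafts.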
